A study of Mus musculus with 30 samples.

Results

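The 4 myosin light chain genes of the heart chambers, Myl2, Myl3, Myl4 and Myl7, were followed across 8 groups of mouse left ventricle. They are 4 of 8251 genes that the array measures. All probe sets that the platform annotation assigns to their symbols were taken, 5 among 12422 probe sets other than array controls: 93050_at for Myl2, 93514_at for Myl3, 100828_at and 160487_at for Myl4, and 100403_at for Myl7. The study compared sex, diet and disease in C57BL/6 mice aged 2 months. Mice were wild type or carried a genotype labelled HCM, and ate a soy-based or a casein-based chow. The labels do not spell out HCM, the usual short form of hypertrophic cardiomyopathy, and name no mutation, promoter or transgene. Each array carried RNA of 2 pooled animals, so its value is already a mean of 2 hearts. The soy-fed wild-type, casein-fed wild-type and casein-fed HCM groups had 4 arrays in each sex, and the soy-fed HCM groups had 3 in each sex, 30 in all. Values are log2 expression, on which a difference of 1 is a doubling, and they carry no detection calls.

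Myosin, the motor of the thick filament, is built from heavy chains whose lever arms each bind an essential and a regulatory light chain. The essential chain stiffens the lever arm, and the regulatory chain carries the phosphorylation site through which light chain kinase and myosin phosphatase tune contraction. Adult ventricle mainly uses Myl2, the ventricular regulatory chain, and Myl3, the ventricular essential chain, which slow skeletal muscle also uses. Adult atrium uses Myl7, the atrial regulatory chain, and Myl4, the atrial essential chain. Both atrial genes are active in the embryonic heart, and Myl4 also in embryonic skeletal muscle. Mutations in MYL2 and MYL3 are among the known causes of human hypertrophic cardiomyopathy.

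Chamber markers other than the light chains were read on every array. Of 12 ventricular muscle markers 9 were measured, and their summed level was between 14.85 and 15.68 on the log2 scale on every array. The ventricular transcription factors Irx4 and Hey2 and the calcium pump regulator Pln were not among the measured ones. The 9 measured were Myh6, Tnni3, Tnnt2, Actc1, Mybpc3, Ckm, Mb, Gja1 and Ryr2. These are genes of heart muscle, and whether they tell ventricle from atrium was not tested. The 11 measured of 14 atrial markers summed to between 10.20 and 11.00. Levels of different probe sets are not comparable, so these sums describe the arrays and do not test the tissue label. RNA controls differed between arrays along diet and genotype. Dap, a bacterial control RNA added to the samples, read 7.19 to 8.07 on the 8 casein-fed HCM arrays and 4.03 to 4.70 on the other 22. Casein-fed wild-type arrays fell into 2 sets of 4 by the difference of the BioD and BioC hybridization controls, at 1.01 to 1.19 in replicates 1 and 2 of both sexes, called set A, and at -0.86 to -0.66 in replicates 3 and 4, called set B. Each remaining combination of diet and genotype was taken as a set of its own by its labels, and the controls did not separate all of them. The BioD minus BioC difference of the soy-fed HCM arrays, at 0.89 to 1.13, overlapped that of set A. With sets defined this way, diet and genotype cannot be told apart from array set, whereas every set held both sexes. All array medians lay between 6.11 and 6.22. The p-values therefore reflect how pooled samples of a group varied, and the number of arrays limits their precision.

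The stretches of 250 bases before the annotated starts of Myl7, Myl4 and Myl3 are shown because Myl7 and Myl4 moved together in the data below, with Myl3 as a ventricular chain for comparison. They are from RefSeq on GRCm38.p6, whose promoter table held all 4 genes. Each reads 5′ to 3′ along its gene and ends at the base before the start, and capitals mark the motif matches named afterwards.
Myl7, atrial regulatory chain, chr11:5898783-5899032, minus strand: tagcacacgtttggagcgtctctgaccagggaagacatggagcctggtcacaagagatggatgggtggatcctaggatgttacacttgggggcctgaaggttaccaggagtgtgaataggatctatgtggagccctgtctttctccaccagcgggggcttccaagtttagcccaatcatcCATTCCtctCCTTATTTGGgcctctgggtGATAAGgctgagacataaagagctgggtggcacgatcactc
Myl4, atrial essential chain, chr11:104550413-104550662, plus strand: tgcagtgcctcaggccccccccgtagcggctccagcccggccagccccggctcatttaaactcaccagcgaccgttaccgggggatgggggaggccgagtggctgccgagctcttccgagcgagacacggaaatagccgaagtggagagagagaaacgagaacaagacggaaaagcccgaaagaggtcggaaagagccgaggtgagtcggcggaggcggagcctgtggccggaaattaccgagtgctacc
Myl3, ventricular essential chain, chr9:110763428-110763677, plus strand: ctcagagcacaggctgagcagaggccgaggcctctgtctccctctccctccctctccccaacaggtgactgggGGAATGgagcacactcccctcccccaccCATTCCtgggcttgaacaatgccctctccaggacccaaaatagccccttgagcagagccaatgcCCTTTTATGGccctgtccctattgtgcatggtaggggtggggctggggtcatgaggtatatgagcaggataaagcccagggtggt

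Both strands were searched for 7 motifs of cardiac and muscle promoters. The first was the CArG box, which serum response factor reads, and the next the MEF2 site. Transcription factors of the TEAD family read CATTCC. The cardiac zinc finger factors of the GATA family bind to the motif GATAAG. The homeobox factors of the NK2 class, such as Nkx2-5, bind to TNAAGTG. The receptors for retinoic acid and thyroid hormone bind to copies of AGGTCA. The basal transcription machinery reads the TATA box, here searched as TATAAA, which can also lie inside a MEF2 site. The Myl7 stretch held CATTCC 70 to 65 bases before the start, a CArG box 61 to 52 bases before it and GATAAG 41 to 36 bases before it, with no overlap between them. The Myl3 stretch held a CArG box 85 to 76 bases before the start and CATTCC at 149 to 144 bases and, on the opposite strand, at 177 to 172 bases. Of 32851 stretches of the same length in the table, 1.47% held a CArG box, 12.6% CATTCC and 6.55% GATAAG. None of the 7 motifs was in the Myl4 stretch. Myl2 had 2 listed starts on chromosome 5, with no match at chr5:122092474-122092723. The stretch at chr5:122092939-122093188 held AGGTCA 141 to 136 bases before the start and, on the opposite strand, TATAAA at 216 to 211 bases. Of all stretches 14.0% held AGGTCA and 12.4% TATAAA. Which annotated start these hearts used was not measured, and a match is a description of letters only.

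Myl7, the atrial regulatory light chain, had opposite HCM differences on the 2 diets. On soy its level was 9.52, 7.99, 7.80 and 8.16 in wild-type males and 7.40, 7.13 and 7.13 in HCM males. In soy-fed females it was 9.61, 9.67, 9.06 and 8.74 in wild type and 7.90, 8.50 and 6.95 in HCM. Every soy-fed HCM array therefore lay below every wild-type array of its sex, and the groups did not overlap. On casein, wild-type males read 7.11, 6.40, 8.11 and 8.22 and HCM males 7.67, 9.55, 9.90 and 9.75. Replicate 1 of the HCM males fell inside the wild-type range, and the other three lay above it. Casein-fed females read 8.17, 8.12, 8.25 and 8.03 in wild type and 8.60, 10.90, 9.93 and 8.75 in HCM. All 4 female HCM arrays were above all 4 wild-type arrays, although they spread over more than 2 log2 units among themselves.

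**Figure D1:**
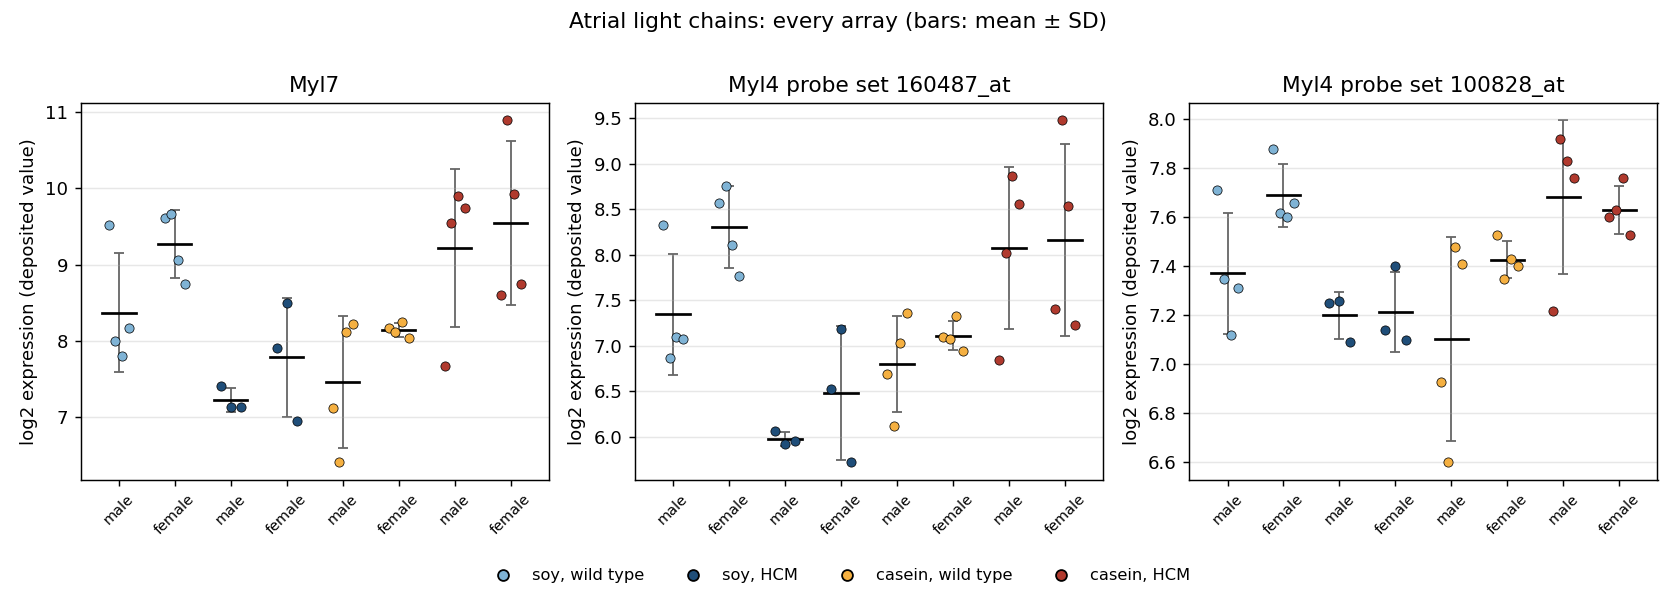
Level of the atrial light chain probe sets (log2 expression, each panel with its own axis) on each of the 30 arrays by sex, diet and genotype; points are arrays, thick bars group means and thin bars the SD. Myl7 means were 7.22 and 7.78 in soy-fed HCM males and females and 9.22 and 9.54 in casein-fed HCM males and females, and both Myl4 probe sets were likewise higher in casein-fed than in soy-fed HCM hearts.

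The HCM difference in Myl7 was -1.15 ± 0.52 (SE) in soy-fed males and -1.49 ± 0.52 in soy-fed females, neither past the threshold (limma, adjusted p = 0.13 and 0.102). Both passed with array weights (0.0332 and 0.00742), and the female one also with only the groups compared (0.0113). On casein Myl7 rose with HCM by 1.76 ± 0.48 in males (3.38-fold, adjusted p = 0.00621) and by 1.40 ± 0.48 in females (2.64-fold, adjusted p = 0.0257). The difference between the diets was itself tested: the HCM effect on casein exceeded that on soy by 2.90 ± 0.50 (95% confidence interval 1.87 to 3.92, adjusted p = 3.53e-05), a 7.44-fold ratio of ratios. The 2 effects share no arrays. Averaged over both diets the HCM effect was 0.13 ± 0.25 (adjusted p = 0.722), with opposite signs on the 2 diets. The call on casein was lost in males when only set B stood for wild type (1.05, adjusted p = 0.19). In females it was lost with array set as a random block (adjusted p = 0.102), with set A or set B alone (0.0772 and 0.0729) and without casein-fed wild-type replicate 4 (0.0508) or HCM replicates 2 (0.138) or 3 (0.0711).

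Myl4, the atrial essential light chain, also had HCM differences of opposite sign on the 2 diets. Its probe set 160487_at read 8.33, 6.87, 7.10 and 7.08 in soy-fed wild-type males against 6.07, 5.92 and 5.95 in HCM males, and 8.57, 8.76, 8.11 and 7.77 in soy-fed wild-type females against 6.53, 7.19 and 5.72 in HCM females. No HCM array overlapped the wild-type arrays of its sex on soy. On casein it read 6.69, 6.12, 7.03 and 7.36 in wild-type males against 6.85, 8.02, 8.87 and 8.56 in HCM males. Again HCM replicate 1 alone fell within the male wild-type range. In casein-fed females the values were 7.10, 7.08, 7.33 and 6.94 in wild type and 7.40, 9.48, 8.54 and 7.23 in HCM, and HCM replicate 4 overlapped wild type. With HCM this probe set fell by 1.37 ± 0.45 in soy-fed males (adjusted p = 0.0458), fell by 1.82 ± 0.45 in soy-fed females (0.02), rose by 1.28 ± 0.42 in casein-fed males (0.0206) and was at 1.05 ± 0.42 in casein-fed females (0.0537). The HCM effect on casein exceeded that on soy by 2.76 ± 0.44 (6.76-fold, adjusted p = 1.07e-05). The calls within single strata were less firm than this difference. In soy-fed males the call was lost when any of 12 arrays was left out and with only the groups compared (0.11), and in soy-fed females when any of 4 was left out, up to 0.152 without HCM replicate 3. In casein-fed males it was lost with set B alone as wild type (0.88, adjusted p = 0.235) and without wild-type replicate 2 (0.0767) or HCM replicates 3 (0.0918) or 4 (0.0678). In casein-fed females the value ran from 0.61 to 1.36 when single arrays were left out, and it passed when any of 8 arrays was left out.

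The other Myl4 probe set, 100828_at, moved over a smaller range. In soy-fed hearts it read 7.71, 7.35, 7.12 and 7.31 in wild-type males, 7.25, 7.26 and 7.09 in HCM males, 7.88, 7.62, 7.60 and 7.66 in wild-type females and 7.14, 7.40 and 7.10 in HCM females. Its soy-fed groups overlapped between genotypes in males and did not in females. In casein-fed hearts it read 6.93, 6.60, 7.48 and 7.41 in wild-type males, 7.22, 7.92, 7.83 and 7.76 in HCM males, 7.53, 7.35, 7.43 and 7.40 in wild-type females and 7.60, 7.63, 7.76 and 7.53 in HCM females. The highest wild-type and the lowest HCM array of casein-fed females were both at 7.53 after rounding and did not cross, whereas in casein-fed males HCM replicate 1 fell inside the wild-type range. It rose with HCM in casein-fed males by 0.58 ± 0.15 (adjusted p = 0.00437), a call that was lost with set B alone as wild type (0.24, adjusted p = 0.26). It was not past the threshold elsewhere (-0.17, -0.48 and 0.21 in soy-fed males, soy-fed females and casein-fed females), although the soy-fed female value passed with array weights (0.00689), with only the groups compared (0.0077) and with set A or set B alone (0.0427 and 0.0302). Its HCM effect on casein exceeded that on soy by 0.72 ± 0.16 (adjusted p = 0.000541), against 2.76 for the other probe set of the gene. Why the 2 probe sets differ in scale was not tested.

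Across the 5 probe sets, 4 had an HCM effect that differed between the diets, all 4 larger on casein, where 45.2% of all 12422 probe sets differed between the diets. The fourth was Myl3, at 0.26 ± 0.07 (adjusted p = 0.00271), and Myl2 was at -0.11 ± 0.07 (0.226). By stratum, 2 of the 5 differed with HCM in soy-fed males (12.5% of all probe sets), 1 in soy-fed females (4.07%), 4 in casein-fed males (31.6%) and 3 in casein-fed females (33%). The HCM by diet difference of Myl7 lay between 2.55 and 3.25 in 10 alternative fits and that of Myl4 160487_at between 2.55 and 2.97 in 9, with the largest adjusted p 0.00732 and 0.00389. Leaving out each of the 30 arrays in turn kept both calls. With array set as a random block Myl3 was lost (adjusted p = 0.0674), and so were Myl4 160487_at in soy-fed males, soy-fed females and casein-fed males (0.227, 0.204 and 0.0941).

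**Figure D2:**
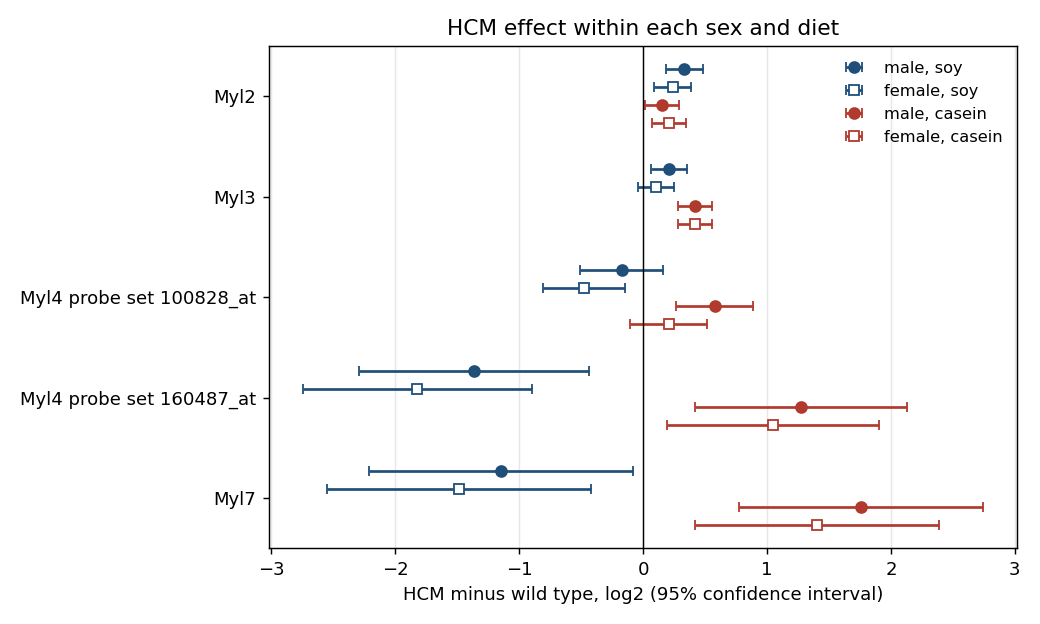
HCM minus wild type (log2, horizontal axis) for each light chain probe set within each sex and diet, as points with 95% confidence intervals from the fit to all arrays. For Myl7 the soy points lie at -1.15 and -1.49 and the casein points at 1.76 and 1.40, while all Myl2 and Myl3 points lie between 0.10 and 0.42.

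Diet differences in the atrial genes also went opposite ways in the 2 genotypes. These comparisons use the same arrays as the HCM ones and add no independent support. Casein against soy gave Myl7 values of -0.91 ± 0.48 in wild-type males and -1.13 ± 0.48 in wild-type females (adjusted p = 0.139 and 0.0864). The male value was -1.61 with set A alone as wild type (0.0466) and ran from -1.16 to -0.52 when single arrays were left out. The female value passed with only the groups compared (0.00169) and without the casein-fed HCM arrays (0.0382). In HCM hearts Myl7 rose on casein by 2.00 ± 0.52 in males (adjusted p = 0.00221) and by 1.76 ± 0.52 in females (0.00724). The female call was lost without soy-fed HCM replicate 3 (0.0684). Myl4 160487_at rose on casein by 2.09 ± 0.45 in HCM males (0.000369) and 1.69 ± 0.45 in HCM females (0.00352), and fell by 1.19 ± 0.42 in wild-type females (0.0373). That last call was lost with array set as a random block (0.145), with set A or set B alone (0.132 and 0.106), with median centring (0.0511) and when any of 7 arrays was left out. Myl4 100828_at rose by 0.48 ± 0.16 and 0.42 ± 0.16 in HCM males and females (0.0156 and 0.0378), and neither call held with array set as a random block (0.0679 and 0.126).

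Levels of Myl7 on single arrays ran from 6.40, in replicate 2 of the casein-fed wild-type males, to 10.90, in replicate 2 of the casein-fed HCM females. That is a range of 4.50 log2 units or 22.6-fold, the widest of all 12422 probe sets, where the median probe set spanned 0.85. Myl4 160487_at had the range of rank 5, at 3.77 log2 units or 13.6-fold. The spread was also wide inside groups. The pooled SD within groups was 0.76 for Myl7 and 0.66 for Myl4 160487_at, ranks 3 and 4 from the highest, against 0.14 for the median probe set and 0.23 for Myl4 100828_at. It was narrow in casein-fed wild-type females, with an SD of 0.09 for Myl7 and 0.16 for Myl4 160487_at, and in soy-fed HCM males, with 0.16 and 0.08, while for Myl7 casein-fed HCM males and females had SDs of 1.04 and 1.08. In a ventricle sample, a change in the share of cells that express an atrial gene and a change in RNA per cell cannot be told apart.

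By group mean, Myl7 rose in order from soy-fed HCM males (7.22) through casein-fed wild-type males (7.46), soy-fed HCM females (7.78), casein-fed wild-type females (8.14) and soy-fed wild-type males (8.37) to casein-fed HCM males (9.22), soy-fed wild-type females (9.27) and casein-fed HCM females (9.54). Arrays of neighbouring groups overlapped at every step of this order, so no 2 neighbours were apart beyond their spread. The soy-fed HCM groups held the lowest and third-lowest mean, and the casein-fed HCM groups the highest and third-highest. The order was not the same for Myl4. Its probe set 160487_at was lowest in soy-fed HCM males (5.98) and females (6.48) and highest in soy-fed wild-type females (8.30), and 100828_at was lowest in casein-fed wild-type males (7.10) and highest in soy-fed wild-type females (7.69).

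The 2 atrial genes moved together from array to array. Over 30 arrays Myl7 and Myl4 160487_at had a Pearson r of 0.965 and a Spearman rank correlation of 0.961. Without the 2 arrays farthest from the Myl4 160487_at median r was 0.954, and over deviations from the group means it was 0.967. It was 0.97 within the casein-fed HCM arrays, 0.994 within the soy-fed HCM arrays and 0.98 within the soy-fed wild-type arrays. Myl7 and Myl4 100828_at gave 0.883 over all arrays and 0.786 within groups. The 2 Myl4 probe sets gave 0.808 and 0.653, so each followed Myl7 more closely than the other probe set of its own gene. Myl7 gave 0.075 with Myl2 (-0.087 within groups) and 0.359 with Myl3 (0.338 within groups). These values describe 30 arrays that share diet, genotype and array set, and no test was made of them.

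**Figure D3:**
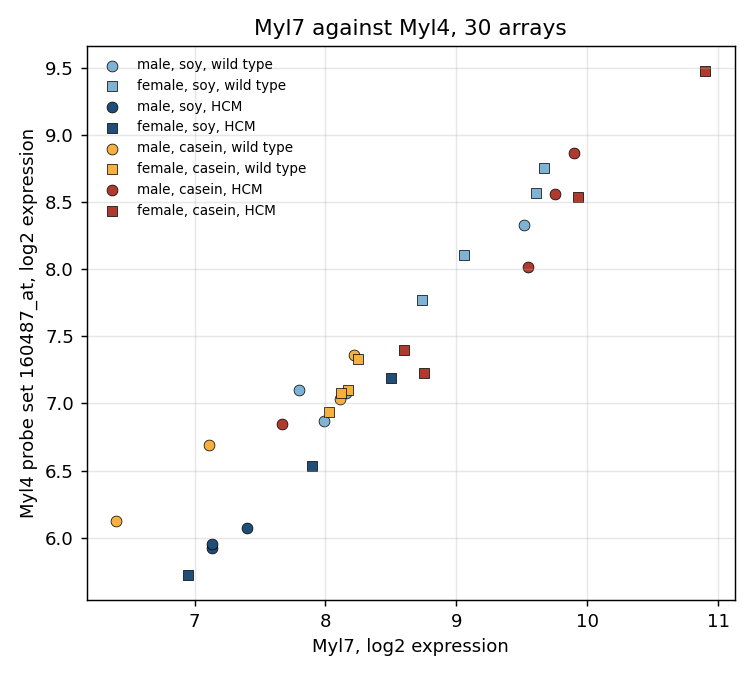
Myl4 160487_at (vertical axis) against Myl7 (horizontal axis), both in log2 expression, one point for each of 30 arrays with colours for diet and genotype and shapes for sex. The arrays lie along one line (Pearson r 0.965), from a casein-fed wild-type male at a Myl7 level of 6.40 to a casein-fed HCM female at 10.90, and the groups mix along it.

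Sex gave no call for any of the 5 probe sets, where 0.233% of all probe sets differed between the sexes. Female minus male, averaged over the 4 strata, was 0.62 ± 0.25 for Myl7 (95% confidence interval 0.11 to 1.13, adjusted p = 0.489), 0.47 ± 0.22 for Myl4 160487_at (0.523) and 0.15 ± 0.08 for Myl4 100828_at (0.566). Myl2 and Myl3 were at -0.01 and -0.05. Within array sets, where sex can be compared on like arrays, the Myl7 difference was 0.90 ± 0.46 in soy-fed wild type, 0.57 ± 0.53 in soy-fed HCM, 1.39 ± 0.65 and -0.03 ± 0.65 in sets A and B of casein-fed wild type, and 0.33 ± 0.46 in casein-fed HCM, none past the threshold. In these 5 sets 0.0725%, 0.0403%, 0.0966%, 0.258% and 1.27% of all probe sets were called. The males of set A were the replicates that read 7.11 and 6.40. Within casein-fed wild-type males set A minus set B was -1.41 ± 0.65 for Myl7 (adjusted p = 0.264) and -0.68 ± 0.18 for Myl4 100828_at (0.0425, where 1.92% of all probe sets were called), and in females 0.01 and 0.03. Neither the HCM effect nor the diet effect was called as different between the sexes for any probe set of the array (0 of 12422 in limma, with 503 and 1755 at an unadjusted p under 0.05). With array weights 137 probe sets passed for diet by sex. Those differences for Myl7 were -0.35 ± 0.50 and -0.23 ± 0.50.

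Myl2, the ventricular regulatory light chain, was among the brightest probe sets of the array. Its pooled SD within groups was 0.08, with the largest spread in soy-fed wild-type males (SD 0.16). On soy it read 13.14, 12.83, 13.19 and 13.07 in wild-type males and 13.42, 13.36 and 13.40 in HCM males. In soy-fed females it read 13.27, 13.07, 13.15 and 13.16 in wild type and 13.38, 13.40 and 13.43 in HCM. HCM arrays lay above wild-type arrays in both sexes without overlap. On casein it read 13.50, 13.56, 13.44 and 13.50 in wild-type males and 13.65, 13.66, 13.66 and 13.64 in HCM males, and 13.43, 13.51, 13.31 and 13.29 in wild-type females and 13.59, 13.54, 13.60 and 13.65 in HCM females. The genotypes did not overlap on casein either, although the closest female arrays, at 13.51 and 13.54, nearly met.

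Myl3, the ventricular essential light chain, stepped up with both diet and genotype. It read 12.86, 12.53, 12.71 and 12.81 in soy-fed wild-type males, 12.89, 12.91 and 13.01 in soy-fed HCM males, 12.89, 12.70, 12.72 and 12.71 in soy-fed wild-type females and 12.84, 12.84 and 12.89 in soy-fed HCM females. Only in soy-fed females did the genotypes overlap, through wild-type replicate 1. On casein it read 13.08, 13.06, 13.24 and 13.22 in wild-type males, 13.61, 13.61, 13.52 and 13.54 in HCM males, 13.02, 13.06, 13.10 and 13.09 in wild-type females and 13.48, 13.54, 13.47 and 13.46 in HCM females. Every casein-fed HCM array was above every other array of the series, and every casein-fed wild-type array was above every soy-fed array.

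**Figure D4:**
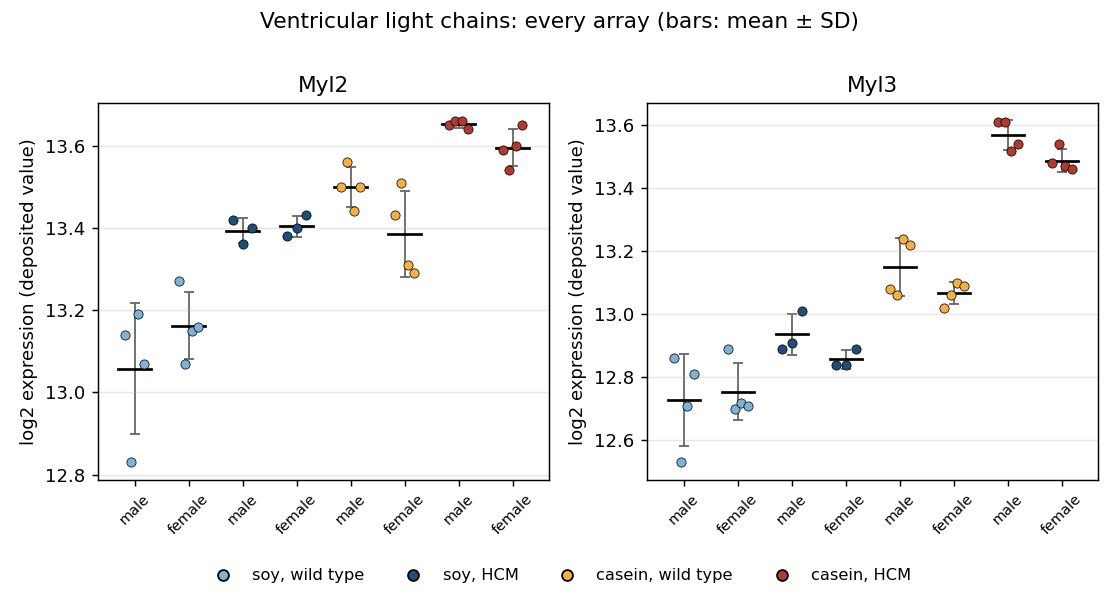
Level of the ventricular light chain probe sets (log2 expression) on each of the 30 arrays by sex, diet and genotype; points are arrays, thick bars group means and thin bars the SD. Myl3 means ran from 12.73 in soy-fed wild-type males to 13.57 in casein-fed HCM males and Myl2 means from 13.06 to 13.65 in the same groups.

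With HCM, averaged over sex and diet, Myl2 rose by 0.23 ± 0.04 (1.17-fold, adjusted p = 1.28e-05) and Myl3 by 0.29 ± 0.03 (1.22-fold, 5.32e-07). They were the 2 of 5 light chain probe sets called in that comparison, where 32.8% of all probe sets were called. By stratum Myl2 rose in soy-fed males by 0.33 ± 0.07 (0.00495) and in casein-fed females by 0.21 ± 0.07 (0.0171), and was at 0.24 ± 0.07 (0.0572) and 0.15 ± 0.07 (0.0929) in soy-fed females and casein-fed males. Myl3 rose by 0.42 ± 0.07 in casein-fed males and in casein-fed females (2.16e-05 and 2e-05) and was at 0.21 ± 0.07 (0.0522) and 0.10 ± 0.07 (0.473) in soy-fed males and females. With array set as a random block the averaged calls held (0.00501 for Myl2 and 0.000722 for Myl3), and both stratum calls of Myl2 were lost (0.0691 and 0.0737). They were also lost with only the groups compared (0.188 and 0.0504), and the casein-fed female one with set A alone (0.13, adjusted p = 0.259), with quantile normalization (0.13, adjusted p = 0.057) and when any of 3 arrays was left out.

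Both ventricular genes passed as higher on casein in all 4 strata, though not under every alternative. Averaged, Myl2 rose by 0.28 ± 0.04 (1.21-fold, adjusted p = 8.6e-08) and Myl3 by 0.50 ± 0.03 (1.41-fold, 9.69e-13). With Myl4 160487_at, at 0.51 ± 0.22 (0.0425), 3 of 5 probe sets were called for diet, against 62.3% of all probe sets. The Myl4 call was lost when any of 20 arrays was left out. By stratum, Myl2 rose on casein by 0.44 in wild-type males, 0.22 in wild-type females, 0.26 in HCM males and 0.20 in HCM females, and Myl3 by 0.42, 0.31, 0.63 and 0.63. With array set as a random block Myl2 was lost in wild-type and HCM females (0.076 and 0.114). In wild-type females Myl2 was also lost with set B alone (0.14, adjusted p = 0.195) and when either of 2 arrays was left out, and in HCM females when any of 5 was. The light chain probe sets called for diet were 2 of 5 in wild-type males (37.8% of all probe sets), 3 of 5 in wild-type females (24.8%), 5 of 5 in HCM males (48.8%) and 5 of 5 in HCM females (43.8%).

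Myl2 stood at the top of the measured scale, which bears on the size of its differences. It was the highest of all 12422 probe sets on 19 of 30 arrays, never below rank 3, and within 0.1 log2 units of the highest probe set on 22. Adding quantile normalization, which gives every array the same highest value, left Myl2 with an HCM effect of 0.12 and a diet effect of 0.047 (adjusted p = 0.14). The same step moved the HCM effect of Myl3 to 0.18 and its diet effect to 0.26, both still called. Within strata it left the diet effect of Myl2 at 0.013, 0 and 0 in wild-type females, HCM males and HCM females, none called. Myl2 was the highest probe set on every HCM array, so quantile normalization fixed the HCM values at 0 in advance. These strata also enter the averaged diet effect, so the step does not test the Myl2 diet effect there. It left that of Myl3 at 0.11 (0.202) in wild-type males and 0.07 (0.467) in wild-type females, where both calls were lost. Myl2 and Myl3 followed each other over 30 arrays (Pearson r 0.872, Spearman rank correlation 0.881) and much less within groups (r 0.388).

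Other atrial markers were set beside Myl7 and Myl4, and they differed among themselves. Of 11 measured genes of the list, 4 had a larger HCM effect on casein than on soy and 1 a smaller one. The 5 called of 11 stand against 45.2% of all probe sets called in that comparison, a like share, and the median of the list was 0.18 against 0.02 for all probe sets. Those larger on casein were Nppa (1.05 ± 0.19, adjusted p = 4.98e-05), the atrial natriuretic peptide, which stressed ventricle also makes, the potassium channel gene Kcnj5 (0.81 ± 0.15, 7.14e-05), the lipid transfer gene Stard10 (0.68 ± 0.09, 4.47e-07) and the secreted factor Dkk3 (0.42 ± 0.10, 0.00152). Nr2f2, a transcription factor of atrial identity, was smaller on casein (-0.64 ± 0.18, 0.00426), while a second probe set of it was at -0.12 (0.149). Nppa was at -0.01 and -0.12 with HCM in soy-fed males and females and at 0.91 and 1.06 on casein. Among the 5 called genes, the group means of Kcnj5, Stard10 and Dkk3 were lower with HCM on soy and higher on casein in both sexes. Those of Nr2f2 went the reverse way. With HCM none of the 11 passed in soy-fed males and 1 fell in soy-fed females, where 12.5% and 4.07% of all probe sets were called. On casein 3 rose and none fell in each sex (31.6% and 33%).

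Sarcolipin (Sln), a calcium pump regulator of mouse atrium, was at 5.56 to 6.45 on all arrays, with an HCM by diet difference of 0.04 ± 0.13 (adjusted p = 0.837). Bmp10, a growth factor of the right atrium, was at 4.58 to 5.60, with a difference of 0.25 ± 0.14 (0.135). Both lay around or below the array medians, and no detection call says whether they were above background. Over 30 arrays the Pearson r with Myl7 was 0.71 for Dkk3, 0.64 for Stard10, 0.59 for Nppa, 0.34 for Kcnj5, 0.04 for Bmp10 and -0.09 for Sln. For the rest of the list it was 0.10 for Kcnj3, 0.02 for Nr2f1, -0.04 for Pam, -0.25 for Gja5 and -0.31 for Nr2f2. Within groups r was 0.49 for Dkk3, 0.28 for Stard10, 0.11 for Nppa, 0.08 for Nr2f1, 0.07 for Nr2f2 and -0.07 for Gja5. It was -0.12 for Pam, -0.16 for Bmp10, -0.17 for Kcnj3, -0.21 for Sln and -0.27 for Kcnj5. The summed level of the 11 genes was 10.30 to 10.46 in soy-fed HCM arrays, 10.33 to 10.74 in soy-fed wild type, 10.20 to 10.32 in casein-fed wild type and 10.56 to 11.00 in casein-fed HCM. The part of atrial tissue in the Myl7 and Myl4 values was not tested.

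**Figure D5:**
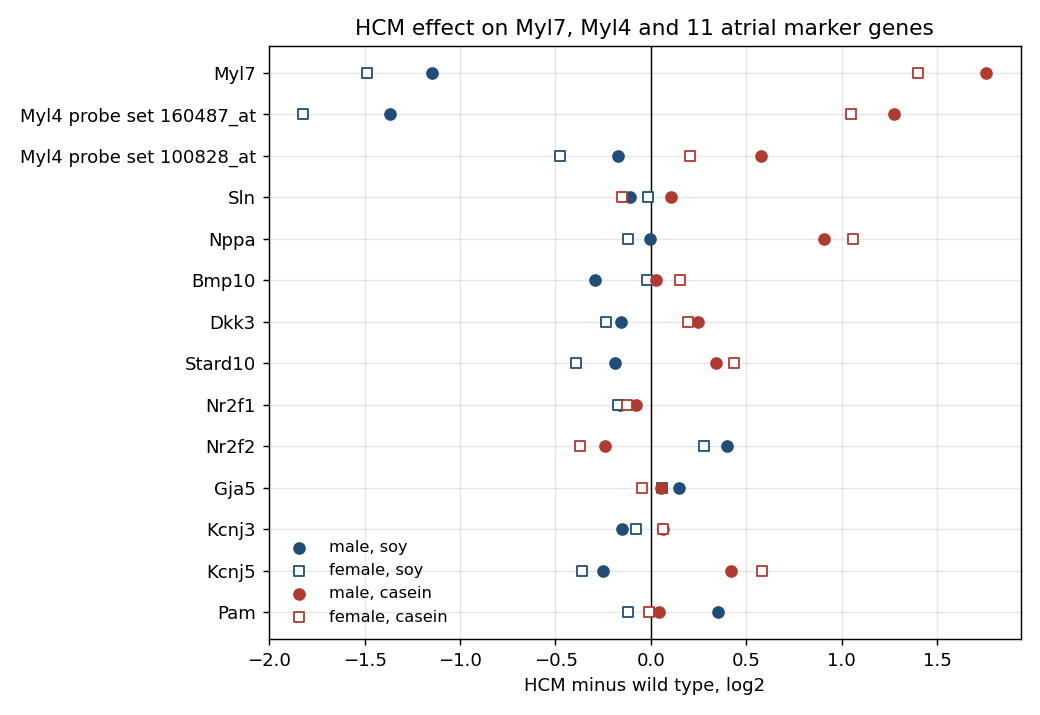
HCM minus wild type (log2, horizontal axis) within each sex and diet for Myl7, both Myl4 probe sets and 11 atrial marker genes; points are values of the fit to all arrays, blue for soy and red for casein. Sln and Bmp10 lie between -0.30 and 0.15, Nppa is at 0.91 and 1.06 on casein and near 0 on soy, and Myl7 lies beyond 1 on both sides of 0.

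Measured genes of the ventricular list mostly moved in the direction of Myl2 and Myl3 in the averaged comparisons and less uniformly within strata. Whether these heart muscle genes are particular to the ventricle was not tested. With HCM, averaged over sex and diet, 7 of 9 measured genes rose and none fell, with a median of 0.22 against -0.01 for all probe sets, among them Gja1 (the main ventricular gap junction protein, 0.38 ± 0.07, adjusted p = 0.000241) and Tnnt2 (cardiac troponin T, 0.25 ± 0.05, 0.000202). On soy alone 6 of 9 rose in males and 2 of 9 in females. On casein 1 rose in males, and in females 2 rose and 2 fell. Of all probe sets 32.8% were called with HCM in the averaged comparison. In soy-fed males and females 12.5% and 4.07% were called, and in casein-fed males and females 31.6% and 33%. On casein against soy, averaged, 7 of 9 rose and none fell, median 0.31, led by Ckm (muscle creatine kinase, 0.55 ± 0.05, 5.99e-10) and Mb (myoglobin, 0.43 ± 0.04, 3.13e-09). A second Ckm probe set fell by 0.14 (0.00925), a second Mb probe set rose by 0.21 (0.0017), and a second Gja1 probe set fell on casein by 0.47 (0.00611) although it too rose with HCM (0.54, 0.00556). By stratum 9 and 8 of 9 rose on casein in wild-type males and females and 6 in HCM males, and in HCM females 4 rose and 2 fell. In these strata 37.8%, 24.8%, 48.8% and 43.8% of all probe sets were called for diet, and 62.3% in the averaged comparison. The HCM effect of Myl3 was larger on casein. That of the ventricular list was smaller on casein in 4 of 9 genes and larger in none, a share of calls near the 45.2% of all probe sets. The largest such value was in Ryr2, the calcium release channel, at -1.02 ± 0.13 (3.77e-07).

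Of 8 other myosin light chain genes 7 were measured. With HCM 2 rose and 1 fell, and on casein 3 rose and 1 fell, where 32.8% and 62.3% of all probe sets were called. Myl1, the fast skeletal essential light chain, had the largest differences: 0.37 ± 0.09 with HCM (adjusted p = 0.00138), 0.75 ± 0.09 on casein (1.57e-08) and an HCM by diet difference of 1.79 ± 0.17 (4.03e-09). With HCM Myl1 rose by 1.09 ± 0.16 in casein-fed males and 1.46 ± 0.16 in casein-fed females (1.27e-05 and 1.51e-07), and was at -0.48 ± 0.18 and -0.57 ± 0.18 on soy (0.067 and 0.0649), the same signs as Myl7 and Myl4 in all 4 strata. The other partner of fast skeletal myosin, the regulatory chain Mylpf, did not pass in any of the averaged comparisons. Over 13 skeletal muscle markers, which include Myl1 and Mylpf, 2 rose and 4 fell with HCM, where 32.8% of all probe sets were called. The HCM effect was larger on casein in 2 and smaller in 3, against 45.2% of all probe sets called. These counts use the brightest probe set of each gene. Further, dimmer probe sets of list genes with a larger HCM effect on casein were of Atp2a1 (0.81, adjusted p = 8.02e-08), Actn3 (0.68, 0.000154), Tnnc2 (0.63, 0.00224) and Myh4 (0.54, 0.00406). Those of Mylpf (0.14, 0.538) and Ckm (0.11, 0.327) did not pass. Only 2 brightest probe sets were larger on casein, that of Myl1 among them. For most of Atp2a1, Actn3, Tnnc2 and Myh4 the brightest probe set was therefore not called as larger. Myl12b, a regulatory chain of non-muscle myosin, rose with HCM by 0.28 ± 0.05 (2.42e-05). Myl9, the smooth muscle regulatory chain, rose on casein by 0.32 ± 0.06 (1.49e-05). Myl6b, a non-muscle essential chain, fell with HCM by 0.20 ± 0.08 (0.0478), while a second probe set of it was at -0.03 (0.687).

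Few enzymes that act on the regulatory chains were measured, 3 of 7 kinases and 4 of 9 phosphatase genes. Mylk, the smooth muscle and non-muscle light chain kinase, fell on casein by 0.50 ± 0.05 (adjusted p = 3.07e-09). Of the phosphatase genes 3 rose with HCM and none fell: Ppp1cb, the catalytic subunit of myosin phosphatase, by 0.87 ± 0.13 (1.73e-05), Ppp1cc, another catalytic subunit, by 0.19 ± 0.07 (0.0268), and Ppp1r14b, a phosphatase inhibitor, by 0.18 ± 0.05 (0.0123). Ppp1r14b also rose on casein by 0.57 ± 0.05 (4.37e-10). On soy alone none of the 4 passed in either sex, and on casein 2 rose in each sex. Of all probe sets 32.8% were called with HCM averaged and 62.3% for diet. With HCM 12.5% and 4.07% were called in soy-fed males and females, and 31.6% and 33% in casein-fed males and females. The cardiac kinase Mylk3 was not among the genes measured.

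Heavy chains and other thick filament genes were measured for 8 of 12. With HCM 5 rose and none fell, median 0.18 against -0.01 for all probe sets, of which 32.8% were called. Myh7, the slow heavy chain of the fetal and stressed ventricle, rose by 0.998 ± 0.11 (adjusted p = 8.46e-08) on one probe set and by 0.185 ± 0.06 (0.0108) on its second, Myom1, the M-band protein, by 0.37 ± 0.06 (7.5e-05) and Myh6, the main heavy chain of adult mouse ventricle, by 0.15 ± 0.04 (0.00499). On soy alone 4 of 8 rose in males and 1 in females (12.5% and 4.07% of all probe sets called). On casein 2 rose in males and 2 rose and 2 fell in females (31.6% and 33%). The HCM effect was larger on casein for 3 genes and smaller for 4, where 45.2% of all probe sets were called. Myh7 was among the larger (0.60 ± 0.21, 0.022), and Mybpc3 (myosin binding protein C, -0.52 ± 0.08, 5.76e-06) and Myom1 (-0.65 ± 0.13, 0.000171) were among the smaller.

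Of 21 transcription factors with a part in chamber identity 14 were measured. With HCM 2 rose and 4 fell, median -0.07. Irx3 rose by 0.45 ± 0.08 (adjusted p = 0.000107) and Mef2a by 0.33 ± 0.07 (0.000737), and Mef2c fell by 0.25 ± 0.06 (0.00133) and Mef2d by 0.19 ± 0.07 (0.0276). Further Mef2c probe sets were at -0.22 (0.00129), -0.445 (0.000276) and 0.13 (0.138). The 6 called of 14 stand against 32.8% of all probe sets. On soy alone 1 of 14 rose in each sex and none fell (12.5% of all probe sets called in males and 4.07% in females). On casein 1 rose and 4 fell in each sex (31.6% and 33%). The HCM effect was larger on casein for 2 (Irx3, 0.74 ± 0.16, 0.000465, and Hand2, 0.60 ± 0.13, 0.000324) and smaller for 6, among them Mef2a (-1.10 ± 0.14, 5.44e-07), Mef2d (-0.95 ± 0.13, 1.51e-06) and Gata6 (-0.89 ± 0.14, 7.15e-06). The other Gata6 probe sets were at -0.46 (6.7e-05) and 0.11 (0.637). On casein against soy 3 rose and 7 fell. Of all probe sets 62.3% were called for diet and 45.2% for HCM by diet.

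The probe sets most like each light chain gene over 30 arrays, by Pearson r, differed between the atrial and the ventricular pair. For Myl7 they were both Myl4 probe sets (0.97 and 0.88), Cebpd (0.81), a transcription factor of the acute phase response, the chemokine gene Ccl9 (0.80) and Actn1 (0.77), the non-muscle alpha-actinin. Within groups the 2 Myl4 probe sets were still first (0.97 and 0.79), followed by Cnn3, Fam98a and Cggbp1, each at 0.68. For Myl2 the first was Actc1, cardiac alpha-actin (0.92), then Lrrfip1 (0.91) and Dstn (0.91), an actin-depolymerizing factor. For Myl3 the first was C030006K11Rik (0.97), then Mrps21, Eif3k, Ndufv2 and Psmc3, each at 0.96, which encode parts of the mitochondrial ribosome, a translation initiation factor, respiratory complex I and the proteasome. These are descriptions over arrays that share diet, genotype and array set.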

How the data were processed

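The authors deposited log2 probe set values from 30 Affymetrix MG_U74Av2 arrays. The submitters' processing notes name RMA and Affymetrix Expression Console but no settings. In general RMA subtracts background, equalises array distributions and summarises the probes of a set, which compresses differences at both ends of the scale. No scanner files were used, so no detection calls were made.

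Samples were grouped by sex, diet and genotype in their labels. Of 12488 probe sets 66 controls were left out, and 10833 of the rest had 1 gene symbol in the platform annotation, 396 several and 1193 none. The 8 groups each had a coefficient in a limma fit over 30 arrays and 12422 probe sets (R 4.3.3, limma 3.58.1), which left 22 residual degrees of freedom and had 5.86 prior ones. All tests are two-sided, with p-values adjusted by Benjamini-Hochberg over all probe sets within each comparison and a threshold of 0.05. Positive values mean higher in HCM, on casein or in females, and errors of differences are standard errors. On simulated data the HCM mean fit recovered 98% of added changes of 0.5 and 100% of changes of 1 on the log2 scale. The simulated noise was independent between arrays and held no array-set effect, so recovery under such an effect was not tested. Within-array-set values came from a fit with a coefficient per sex and set. For a list gene with several probe sets, the one with the highest mean over arrays was used.

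The light chain genes and the gene lists were chosen with earlier results of these data known. Named are all light chain probe sets, the 5 probe sets most like each, and from each list up to 4 genes with the largest called change. Values of Dkk3, Stard10, Kcnj5, Sln, Bmp10, the HCM by diet values of list genes and the strata of Myl1 and Nppa were picked after their values were seen. Correlations with Myl7 are given for every measured atrial marker. Alternatives were 1 probe set per gene, leaving out the dimmest 40%, added quantile normalization, median centring, replicate block, array weights, an intensity trend, only the groups compared, array set as a random block (statmod 1.5.0), no casein-fed HCM arrays, and leaving out each array. Using only set A or set B of the casein-fed wild type was chosen after seeing the data. One kinase gene of the lists is not reported here.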

Additional observations from a re-analysis of the deposited data

Results flagged for a closer look

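Among 30 group values tested for a single distant array, 3 stood apart, where chance gives about 1 in 20. Myl7 replicate 1 of the casein-fed HCM males was at 7.67, with the other arrays of its group at 9.55, 9.75 and 9.90. Myl4 160487_at replicate 1 of the soy-fed wild-type males was at 8.33, with the others at 6.87, 7.08 and 7.10. Myl3 replicate 1 of the soy-fed wild-type females was at 12.89, with the others at 12.70, 12.71 and 12.72.

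The HCM effect differed between the diets, by limma's test of the difference, for 4 light chain probe sets. It was larger on casein by 2.90 for Myl7, by 2.76 for Myl4 160487_at, by 0.72 for Myl4 100828_at and by 0.26 for Myl3.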

How the results depend on the processing

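The HCM effect averaged over strata, the sex effect and the HCM by diet difference kept their side of the threshold for all 5 light chain probe sets in every alternative fit and every leave-one-out fit, except Myl3 for HCM by diet (0.26, adjusted p = 0.0674 with array set as a random block). The averaged diet effect was less steady. Myl2 was at 0.047 with added quantile normalization, which fixes its value on every array where it is the highest probe set. Myl4 160487_at was not called with array set as a random block (0.51, adjusted p = 0.222) or with set A only (0.41, 0.169), and ran from 0.40 to 0.61 when single arrays were left out. Myl4 100828_at was called with array weights (0.16) and with set B only (0.18). Myl7 was called with array weights (0.58), and ran from 0.32 to 0.56 when single arrays were left out. Of the values within strata or of the interactions with sex, 724 kept their side of the threshold in the alternative fits, 22 gained a call and 35 lost it. Many of the 724 were not called in the main fit and stayed so. The 35 losses are therefore a larger share of the calls than of all these values.

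Over 99 pairs of arrays with the same replicate number the deviations from group means had a median r of -0.01 (-0.55 to 0.60), so the numbers did not pair the samples in general. Among 28 pairs of groups 1 was the exception, casein-fed wild-type males and females, where every same-number r was over 0.1 and the numbers also divide sets A and B. With the replicate block no light chain call on sex changed there. With the replicate block only Myl4 160487_at for HCM in soy-fed males (-1.41, adjusted p = 0.0546) and Myl4 100828_at for diet in HCM females (0.41, 0.059) lost their calls. Counts over all probe sets moved by over 1.5 times in several comparisons: HCM 4076 against 1194 with array set as a random block, HCM by diet 5616 against 2616 with that block, 3718 with 1 probe set per gene and 3717 without the dimmest 40%, diet 7733 against 5054 without the dimmest 40%, and sex 29 against 19 (set A only) to 93 (array weights). The range was 26 to 3515 for HCM in soy-fed males (1558 as reported), 64 to 2539 in soy-fed females (505), 2366 to 4967 in casein-fed males (3920) and 2491 to 4508 in casein-fed females (4104). The casein-fed HCM arrays cannot be left out of HCM by diet. No signal over background was given, so dim probe sets could not be set apart.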
